A study of Mus musculus with 4 samples.

Results

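The aldehyde dehydrogenases described here are 10 genes, chosen by name: every probe that the scanner files call Aldh1a1, Aldh1a3, Aldh1a7, Aldh1b1, Aldh2, Aldh3a1, Aldh3a2, Aldh6a1, Aldh7a1 or Aldh9a1 was read on all 4 arrays, 10 of the 37074 gene names on the array. Heart RNA came from female C57BL/6J mice of 4 groups, with 1 single-colour Agilent array for each group. The NAC + CY group received N-acetylcysteine (NAC) at 200 mg/kg, 2 h ahead of cyclophosphamide (CY) at 400 mg/kg. The CY group received CY alone at 400 mg/kg, the acrolein group received acrolein at 5 mg/kg, and the control group received normal saline (NS). All injections were intraperitoneal, once a day for 2 days, in animals with no allele named and an age of 6 weeks in the labels. A piece of each heart was frozen for RNA 3 h after the last dose, although the study's results text speaks of days for part of the array data. Each group is 1 array, whether it holds 1 heart or a pool is not stated, and so the differences below were measured once, with no test of them possible.

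CY is a nitrogen mustard prodrug that the liver activates. Its active form, aldophosphamide, either breaks down to phosphoramide mustard and the reactive aldehyde acrolein or is oxidised by aldehyde dehydrogenases to carboxyphosphamide, which does not alkylate DNA. Aldehyde dehydrogenases use NAD or NADP to turn an aldehyde into a carboxylic acid. The cytosolic ALDH1A enzymes oxidise retinaldehyde to retinoic acid, and ALDH1A1 and ALDH3A1 are known from tumour and blood stem cells as enzymes that protect against CY. ALDH2 is the mitochondrial enzyme that clears acetaldehyde and lipid aldehydes in the heart. NAC supplies cysteine for glutathione, which binds acrolein.

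Each gene is given as its normalised signal in arbitrary fluorescence units, in which levels of different probes are not comparable, and as the log2 ratio between 2 arrays. The error after ± is the scanner software's own error estimate carried to the log2 ratio. Spots repeated on 1 array differed by an SD of 0.081 log2 units on NAC + CY, 0.072 on CY, 0.11 on acrolein and 0.064 on NS. All 20 probes of the 10 genes have 1 spot each, so this SD was not measured on them. To be called higher, a gene needed a ratio of 1.5 or more together with a Z-score of 2 or more. A call of lower needed a ratio of 0.66 or less and a Z-score of -2 or less. This Z-score is the distance of a log2 ratio from the mean of the 200 probes nearest in signal, in units of their SD. Where a gene has several probes, the brightest with a P (present) flag on at least 1 of the 2 arrays stands for it. Probes well above background were 49.9% on NAC + CY, 49.6% on CY, 50.03% on acrolein and 47.1% on NS. Of the 20 probes of the 10 genes, 16 carried a P flag on at least 1 array and 15 on all 4. The 4 probes with none, 2 of 3 for Aldh1a3 and 2 of 4 for Aldh3a2, gave no ratio. All 10 genes kept at least 1 probe, and 6 of them, Aldh1a1, Aldh1a3 and Aldh1a7 included, kept only 1.

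The calls among these genes fell on 3 cytosolic genes, Aldh1a1, Aldh1a3 and Aldh1a7. To show what was read for them, the first 30 of the 60 bases of each probe are printed, 5′ to 3′, all in lower case, with mm9 positions from the array files: Aldh1a1 at chr19:20717764-20717823 (plus strand), Aldh1a7 at chr19:20767553-20767612 (minus strand) and Aldh1a3 at chr7:73535785-73535844 (minus strand).
Aldh1a1 probe: gactagttgtgacttaagctctgtccctca
Aldh1a7 probe: ttccttgaactatgtaccatgcatgataac
Aldh1a3 probe: ggggattttgatcttaagttcagattgtgt
Aldh1a1 and Aldh1a7 are close paralogues that lie 49489 bases apart on chromosome 19, and their probes share no run longer than 8 bases. Binding of either transcript to the other's probe was not tested.

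These paralogues also resemble each other ahead of their start sites, so the 250 bases before the second of the 2 starts listed for Aldh1a1 and before the start of Aldh1a7 are shown (RefSeq, GRCm38.p6). The windows are chr19:20601718-20601967 (plus strand) and chr19:20727557-20727806 (minus strand). Capitals mark the longest run of bases that both share.
Aldh1a1 upstream: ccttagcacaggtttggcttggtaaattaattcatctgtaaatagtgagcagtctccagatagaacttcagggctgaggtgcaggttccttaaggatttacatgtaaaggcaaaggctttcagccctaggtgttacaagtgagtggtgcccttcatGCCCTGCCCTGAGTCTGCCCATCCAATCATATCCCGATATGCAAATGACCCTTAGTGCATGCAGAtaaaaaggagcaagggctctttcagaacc
Aldh1a7 upstream: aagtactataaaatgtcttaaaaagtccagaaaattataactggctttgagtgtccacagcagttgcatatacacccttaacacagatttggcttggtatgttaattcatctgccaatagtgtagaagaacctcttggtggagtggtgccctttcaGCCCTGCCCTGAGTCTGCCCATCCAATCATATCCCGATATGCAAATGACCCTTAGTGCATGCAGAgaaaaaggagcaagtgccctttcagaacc
The shared run is 65 bases long and lies at -94 to -30 from both starts. In a global alignment 175 of 265 columns (66.0%) were identical, against 138 of 271 (50.9%) between Aldh1a7 and the first Aldh1a1 start. The shared run holds CCAAT at -72 from each start. Of 32851 RefSeq promoter windows of 300 bases (250 before to 50 after a start), 37.4% held CCAAT on either strand. TGACNNNGC, the core letters bound by NRF2, occurred in 12.4% of these windows, and GCGTG, the core letters bound by the aryl hydrocarbon receptor (AhR), in 32.4%. Windows were read for 6 of the 10 genes, 8 windows in all. Aldh7a1 was left out beforehand with its chromosome, which was kept among the 32851 windows. CCAAT was in 7 of these 8 windows. TGACNNNGC was in 1 of them (Aldh9a1) and GCGTG in 3 (Aldh9a1, Aldh3a2 and 1 of those of Aldh6a1). None of the windows of Aldh1a1, Aldh1a7 or Aldh1b1 held TGACNNNGC or GCGTG. A match, or none, is a description of the letters only.

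After CY, 1 of the 10 genes was called higher than in NS (Aldh1a1) and 0 lower, beside 3.38% of 19728 genes called higher and 2.82% called lower. After NAC + CY, 1 was called higher than in NS (Aldh1a7) and 0 lower, beside 2.68% of 19816 genes higher and 2.59% lower. After acrolein, 0 were called higher than in NS and 2 lower (Aldh1a3 and Aldh1a7), beside 1.08% of 19716 genes higher and 1.3% lower. Between NAC + CY and CY, 0 were called higher and 1 lower (Aldh1a1), beside 1.54% of 20091 genes higher and 2.82% lower. Counts of 1 or 2 among 10 genes are too small to be set apart from these shares. Before any threshold, log2 ratios of all 10 genes were above 0 after CY and after NAC + CY, with a median of 0.41 in each case, while 48.3% and 48.9% of all genes were above 0 and the median over all genes was -0.02 after CY and -0.01 after NAC + CY. A list of 11 other aldehyde dehydrogenase genes had medians of 0.02 after CY and 0.05 after NAC + CY. So the medians of the 10 genes do not stand for the whole family. For Aldh6a1 after CY the ratio was 0.00, and it turned to -0.11 when arrays were scaled to their 75th percentile. After acrolein 7 of the 10 were above 0, with a median of 0.05, against 0.01 over all genes. NAC + CY against CY gave 8 above 0 and a median of 0.07, against 0.02 over all genes. The 3 comparisons against NS share the 1 NS array.

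**Figure D1:**
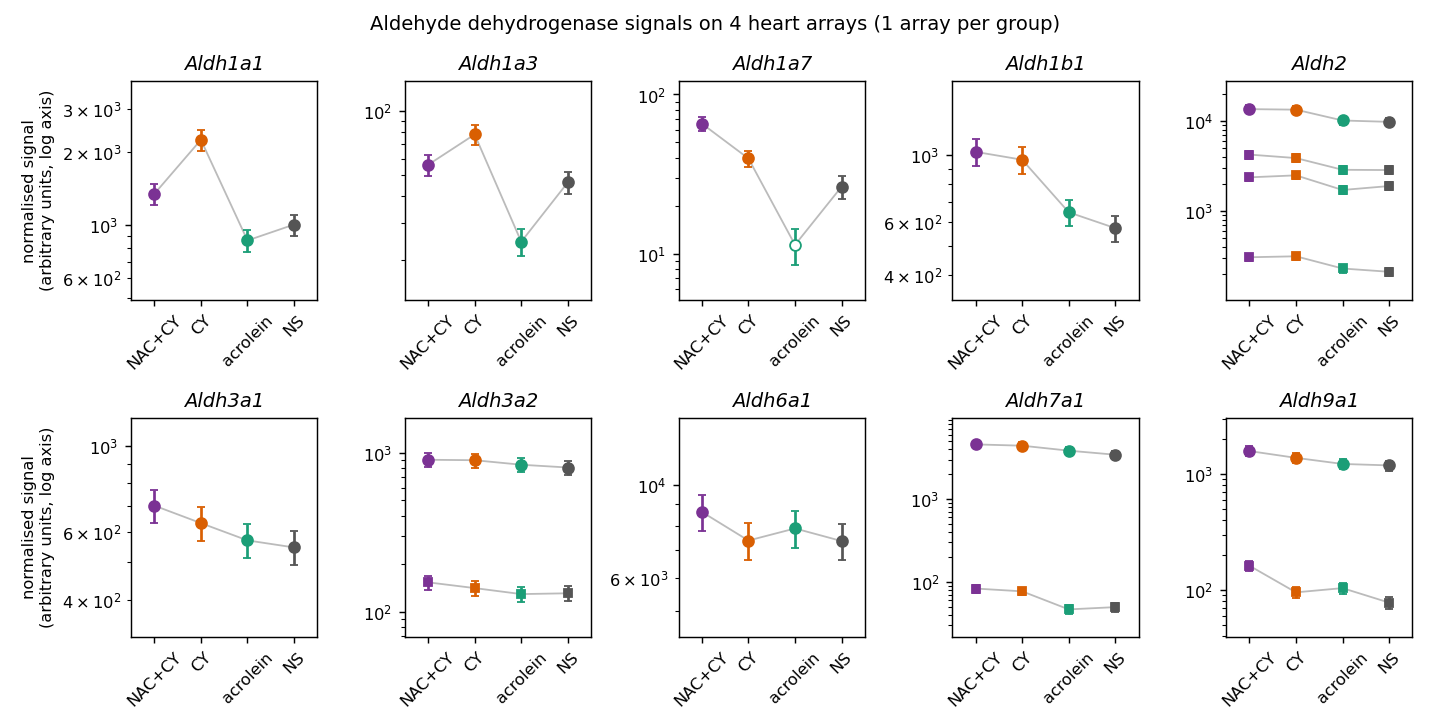
Normalised signal (arbitrary units, log axis, a separate range in each panel) of the 16 P-flagged probes of the 10 genes on the NAC + CY, CY, acrolein and NS arrays. Circles are the brightest probe of a gene and squares its other probes, grey lines join 1 probe, bars are the scanner software's error estimate and the open circle is not well above background; Aldh1a1 peaks on CY at 2239 and Aldh1a7 on NAC + CY at 65.6.

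Aldh1a1, which makes retinoic acid and oxidises aldophosphamide, had a normalised signal of 1339 on NAC + CY, 2239 on CY, 861 on acrolein and 1001 on NS. CY stood highest, and acrolein and NS were closest to each other. The log2 ratio of CY to NS was 1.16 ± 0.20 (2.24-fold, Z = 2.69), a call of higher, and 4.48% of all genes had a larger ratio. NAC + CY against CY gave -0.74 ± 0.20 (Z = -2.64), a call of lower, with 94.4% of all genes above it. Neither NAC + CY against NS (0.42 ± 0.20, Z = 1.096) nor acrolein against NS (-0.22 ± 0.20, Z = -1.51) was called.

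Aldh1a7, a rodent gene close to Aldh1a1 whose enzyme oxidises small aldehydes, gave 65.6 on NAC + CY, 39.6 on CY, 11.4 on acrolein and 26.4 on NS. Its highest array was NAC + CY, not CY, and its acrolein signal was not well above background. NAC + CY was called higher than NS (log2 ratio 1.32 ± 0.28, 2.49-fold, Z = 2.27). Acrolein was called lower than NS (Z = -2.19), and since the acrolein value is only a bound, the change is at least 2.09-fold lower, the NS signal divided by the lowest normalised signal of any spot well above background on the acrolein array. CY stood 0.59 ± 0.29 above NS (Z = 0.76), and NAC + CY stood 0.73 ± 0.23 above CY (Z = 0.90), where Aldh1a1 stood at -0.74. The paralogues lay on opposite sides of 0 in that comparison, the difference for Aldh1a7 not being a call. Both Aldh1a7 calls are close to the Z-score threshold: at a threshold of 3 neither remained. The NAC + CY call was also lost on scaling to the 75th percentile, at a log2 ratio of 1.36, and under normexp background correction the ratio was 0.59, still a call.

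Aldh1a3, another retinaldehyde dehydrogenase, gave 56.04 on NAC + CY, 77.8 on CY, 24.4 on acrolein and 46.4 on NS. The order of arrays was that of Aldh1a1, with a deeper minimum on acrolein. Acrolein against NS was called lower (-0.93 ± 0.27, Z = -2.28), and 98.9% of all genes had a higher ratio. CY against NS gave 0.75 ± 0.23 (1.68-fold, Z = 1.40), NAC + CY against NS 0.27 ± 0.24 (Z = 0.23) and NAC + CY against CY -0.47 ± 0.22 (Z = -0.92). This probe is dim, and under normexp background correction its acrolein ratio shrank to -0.29 and that of Aldh1a7 to -0.31, with no call for either.

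Aldh1a2, the retinaldehyde dehydrogenase of the embryonic epicardium, is not among the 10 genes but was in a list of 11 other aldehyde dehydrogenase genes read beside them. It gave 268 on NAC + CY, 725 on CY, 287 on acrolein and 398 on NS. NAC + CY was called lower than CY (-1.44, Z = -4.71). CY against NS reached 0.87 (Z = 1.94), just under the Z-score criterion, and acrolein against NS gave -0.47 with Z = -2.43 but did not meet the ratio criterion. In that comparison of NAC + CY with CY, Aldh1l1, the folate enzyme 10-formyltetrahydrofolate dehydrogenase, was called higher (1.30, Z = 2.66), at 378 on NAC + CY and 154 on CY. Those were 1 of 11 called higher and 1 lower, and 0 of the genes measured in this list was called in the comparisons with NS.

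**Figure D2:**
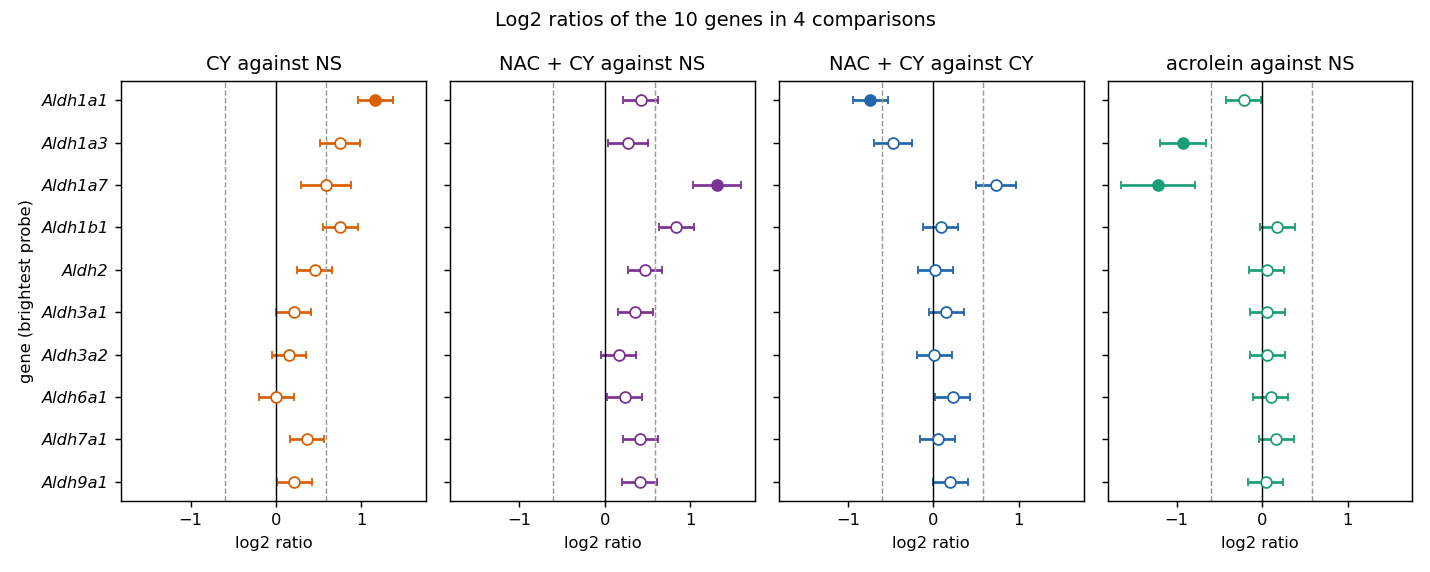
Log2 ratio of the brightest P-flagged probe of each of the 10 genes in the 4 comparisons, with the scanner software's error estimate as bars. Filled circles met the Z-score and ratio criteria, dashed lines stand at ratios of 1.5 and 0.66; all circles of CY against NS and NAC + CY against NS lie at or right of 0, and those of acrolein against NS lie near 0 but for Aldh1a3 and Aldh1a7.

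No mitochondrial gene among the 10 was called on its brightest probe. Aldh1b1, a mitochondrial enzyme that oxidises acetaldehyde and retinaldehyde, gave 1023 on NAC + CY, 963 on CY, 645 on acrolein and 572 on NS. Both arrays with CY stood above both without it, and NAC + CY and CY differed by less than the error (0.09 ± 0.20). Aldh1b1 exceeded a ratio of 1.5 to NS after CY (0.75 ± 0.20, 1.69-fold) and after NAC + CY (0.84 ± 0.20, 1.79-fold), but Z-scores of 1.58 and 1.52 did not reach the criterion. Acrolein against NS gave 0.17 ± 0.20.

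Aldh2 was read by 4 probes, all with P flags on all 4 arrays. The brightest gave 13627 on NAC + CY, 13438 on CY, 10187 on acrolein and 9831 on NS. The other 3 probes gave 4254, 2374 and 307 on NAC + CY, 3890, 2499 and 314 on CY, 2881, 1718 and 230 on acrolein, and 2861, 1900 and 211 on NS. In each of the 4 probes both arrays with CY were above both without it. Log2 ratios of the 4 probes to NS ran from 0.40 to 0.57 after CY, from 0.32 to 0.57 after NAC + CY and from -0.15 to 0.12 after acrolein. For the brightest probe they were 0.45 ± 0.20 (Z = 1.11), 0.47 ± 0.20 (Z = 1.41) and 0.05 ± 0.20 (Z = 0.28), in the same order, and none was called.

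Aldh6a1, the methylmalonate semialdehyde dehydrogenase of valine breakdown, had a signal of 8627 on NAC + CY, 7367 on CY, 7874 on acrolein and 7346 on NS, and its largest ratio, NAC + CY against NS, was 0.23 ± 0.20 (Z = 0.54). CY and NS were within the error of each other (0.00 ± 0.20). Aldh7a1 codes for the enzyme of lysine breakdown that also oxidises betaine aldehyde and lipid aldehydes. It gave 4570 on NAC + CY, 4408 on CY, 3839 on acrolein and 3429 on NS with its bright probe. A dim probe gave 83.2 on NAC + CY, 76.9 on CY, 46.6 on acrolein and 49.6 on NS. Acrolein stood above NS on the bright probe and below NS on the dim one. Both probes were higher with CY than without, by 0.36 ± 0.20 and 0.63 ± 0.23 for CY against NS and by 0.41 ± 0.20 and 0.74 ± 0.23 for NAC + CY against NS, with Z-scores of at most 1.15 and no call.

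Aldh3a1 and Aldh3a2 are neighbours on chromosome 11, 4998 bases apart. The first codes for a cytosolic enzyme of the cornea that is known for inactivating aldophosphamide, the second for the fatty aldehyde dehydrogenase of the endoplasmic reticulum. Aldh3a1 gave 701 on NAC + CY, 632 on CY, 570 on acrolein and 546 on NS, a spread of 0.36 ± 0.20 log2 units from the highest array to NS. Aldh3a2 gave 901 on NAC + CY, 895 on CY, 838 on acrolein and 805 on NS, and its second P-flagged probe 153, 141, 129 and 131 on the same arrays. All 3 of these probes had ratios to NS between -0.02 and 0.36, and none was called.

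Aldh9a1, which oxidises trimethylaminobutyraldehyde on the way to carnitine, gave 1579 on NAC + CY, 1379 on CY, 1222 on acrolein and 1187 on NS with its brightest probe. NAC + CY against NS was 0.41 ± 0.20 (Z = 1.02) and CY against NS 0.22 ± 0.20 (Z = 0.39). The dimmer probe gave 162 on NAC + CY, 95.2 on CY, 104 on acrolein and 77.6 on NS. Its ratio of NAC + CY to NS, 1.06 ± 0.22 with Z = 2.01, met the criteria, so that the probes of Aldh9a1 disagree on a call and agree on its direction.

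Genes of related pathways were read in lists. The shares of all genes called, for these and the marker lists, were 3.38% higher and 2.82% lower after CY. They were 2.68% and 2.59% after NAC + CY, 1.08% and 1.3% after acrolein, and 1.54% and 2.82% for NAC + CY against CY. Counts of 1 or 2 in a list are too small to be set apart from these shares. Of 13 measured genes of glutathione synthesis and of the conjugation of acrolein to glutathione, 7 were called higher after CY, 0 lower, with a median of 0.93. They included Gclm (1.70, Z = 3.36), the modifier subunit of the rate-limiting synthesis enzyme, the transferases Gstm1 (1.101, Z = 3.04) and Gsta3 (1.36, Z = 3.01), and the dipeptidase Dpep1 (1.56, Z = 2.87). After NAC + CY, 5 of 13 were called higher and 0 lower (median 0.77), with Gsta4 (1.85, Z = 4.25), Gsta3 (1.70, Z = 3.56), Gstm1 (1.27, Z = 3.34) and Gclm (1.12, Z = 2.96) at the top. After acrolein 0 of 13 were called, with a median of 0.05. NAC + CY against CY gave 1 higher (Gsta4, 0.65, Z = 2.43) and 1 lower (Dpep1, -0.64, Z = -2.84).

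Among 17 measured genes of aldehyde reduction, 2 were called higher after CY and 0 lower (median 0.01): the carbonyl reductase Cbr3 (1.31, Z = 2.32) and the alcohol dehydrogenase Adh1 (1.19, Z = 2.26). Cbr3 was also called lower in NAC + CY than in CY (-0.86, Z = -2.62). Akr1c6, a liver hydroxysteroid dehydrogenase, was well above background on NAC + CY alone, at least 7.14-fold higher than in NS and at least 9.17-fold higher than in CY. It was the 1 gene of 18 measured that was called higher after NAC + CY, with 0 lower, and NAC + CY against CY gave 1 higher and 1 lower of 18. After acrolein 0 of 17 were called. Aox1, an aldehyde oxidase, was called higher after CY (1.29, Z = 2.81) and after NAC + CY (1.32, Z = 3.54), 1 of 2 measured genes of the aldehyde oxidases and xanthine dehydrogenase each time and 0 in the other 2 comparisons.

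Retinoic acid is the product of the ALDH1A enzymes, and 15 genes of its pathway were measured. After CY 2 were called higher, among them Adh1, which was listed here too. Those called lower numbered 2, the retinol ester enzyme Lrat (at least 5.26-fold lower) and the retinol transporter Stra6 (-1.85, Z = -3.55), and the median was -0.19. After NAC + CY, Rbp4, the retinol carrier of plasma, was called higher (2.30, Z = 4.91), and Lrat (at least 5.4-fold lower) and Stra6 (-1.86, Z = -4.08) lower. After acrolein 0 were called higher and 2 lower, Rbp4 (-1.77, Z = -5.46) and Lrat (-0.69, Z = -2.25). NAC + CY against CY gave 1 higher (Rbp4, 1.25, Z = 3.12) and 1 lower of 14 measured. The retinoic acid receptor genes Rara, Rarb, Rarg, Rxra, Rxrb and Rxrg were not called in any of the 4 comparisons.

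Aldh3a1 is known as part of the AhR battery, and 7 other genes of it were measured. After CY, Cyp1b1 (1.80, Z = 3.38) and Tiparp (1.17, Z = 2.27) were called higher and Cyp1a1 lower (at least 2.63-fold). After NAC + CY, Tiparp (1.52, Z = 2.89), Nqo1 (1.12, Z = 2.22) and Cyp1b1 (1.01, Z = 2.13) were called higher and Cyp1a1 lower (at least 2.7-fold). After acrolein 0 of 7 were called, and NAC + CY against CY gave 0 higher and 1 lower (Cyp1b1, -0.80, Z = -2.04) of 6.

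**Figure D3:**
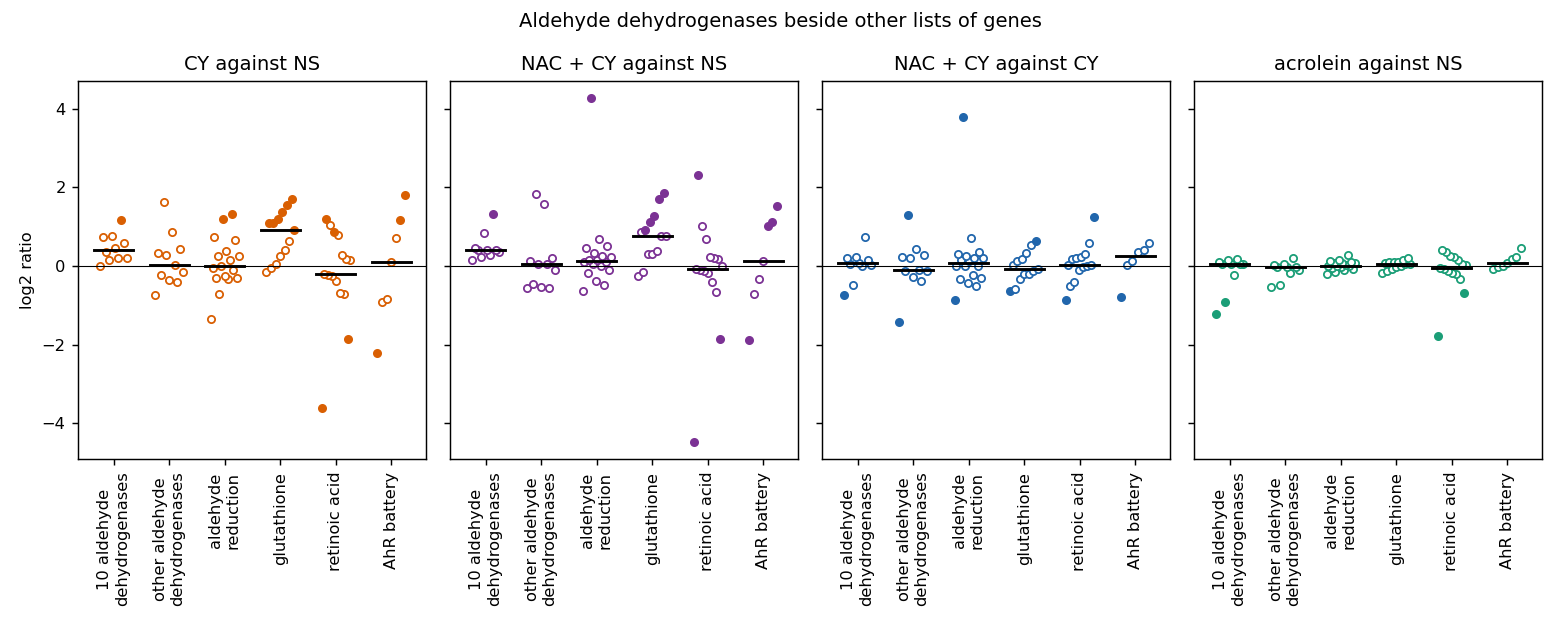
Log2 ratios of the 10 aldehyde dehydrogenases beside the genes measured in 5 other lists, in each of 4 comparisons. Each point is 1 gene, filled where it met the criteria, and black bars are list medians; the 10 genes have a median of 0.41 after CY and after NAC + CY, and the glutathione genes 0.93 and 0.77.

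Heart tissue holds several cell types, and with bulk RNA fewer cells of a type and less RNA per cell cannot be told apart. All 10 cardiomyocyte markers were well above background on all 4 arrays, with 0 called higher and 2 lower after CY and after NAC + CY (Ttn and Ryr2 both times) and 0 in the other comparisons. Mesothelial markers had the same order of arrays as Aldh1a1 at its top and bottom: their summed signal was 2441 on NAC + CY, 7329 on CY, 1253 on acrolein and 2442 on NS. Of those measured, 8 of 10 were called higher after CY (Upk1b 2.30, Krt8 2.25), 8 of 9 lower after acrolein (Upk3b -1.41, Lrrn4 -1.41), 0 of 9 after NAC + CY, and 9 of 10 lower in NAC + CY than in CY (Bnc1 at least 2.63-fold, Krt19 -2.40). Atrial muscle markers summed to 495274 on NAC + CY, 816637 on CY, 382965 on acrolein and 306716 on NS. Here 8 of 8 were called higher after CY (Bmp10 at least 6.29-fold, Dkk3 3.20), 5 of 7 after NAC + CY, 0 of 7 after acrolein, and 7 of 8 lower in NAC + CY than in CY. The study lists Dkk3 among its most upregulated genes after CY on these same arrays, so that call was known beforehand. Fibroblast markers summed to 117636 on NAC + CY, 168270 on CY, 109693 on acrolein and 107219 on NS, with 1 of 8 called higher after CY. Their mean log2 signal was 11.22 on NAC + CY, 12.01 on CY, 11.76 on acrolein and 11.84 on NS. By this measure NAC + CY was lowest, not above NS. The median log2 ratio after CY was 0.05 for the fibroblast list, against 1.55 for the mesothelial and 1.89 for the atrial list. Aldh1a1, Aldh1a2 and Aldh1a3 were, like the mesothelial, atrial and fibroblast lists, highest on CY. The part of mesothelial, atrial or fibroblast RNA in the ratios of these genes was not tested.

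Hepatocyte markers, like Aldh1a7 and Aldh1l1, were highest on NAC + CY. Their summed signal was 16211 on NAC + CY, 8165 on CY, 1936 on acrolein and 2463 on NS, but 1 gene, Ahsg, made up 6965 of the CY sum, and the mean log2 signal of the list was 8.80 on NAC + CY, 4.46 on CY, 3.90 on acrolein and 4.43 on NS. Of 12 markers 0 were not well above background on NAC + CY, against 7 on each of CY, acrolein and NS. After NAC + CY, 10 of 12 were called higher than in NS (Alb at least 229-fold, Fgg at least 51.2-fold) and 9 of 12 higher and 1 lower than in CY. After CY 2 of 5 measured were called higher (Ttr 2.98, Ahsg 2.58), and after acrolein 1 of 5 lower. Adipocyte markers summed to 29440 on NAC + CY, 18289 on CY, 9223 on acrolein and 13853 on NS, the order of Aldh1a7. Of 8, 5 were called higher after NAC + CY (Ucp1 3.31, Plin1 2.78), 2 higher after CY, 6 lower after acrolein (Adipoq -2.19, Cfd -2.18), and 5 higher in NAC + CY than in CY. The part of liver or fat RNA in the ratios of Aldh1a7 was not tested.

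The other marker lists moved as follows. Of airway and lung epithelial markers 3 of 5 were called lower after acrolein, 2 lower and 1 higher after NAC + CY, 0 after CY, and 1 in each direction between NAC + CY and CY. Erythroid markers gave 5 of 6 lower after NAC + CY, 1 of 6 lower after CY and after acrolein, and 4 of 5 lower in NAC + CY than in CY. Fibroblast markers gave 3 of 8 lower after NAC + CY, 1 higher after CY, 0 after acrolein, and 4 lower in NAC + CY than in CY. Of 8 endothelial markers 1 was lower after CY and after NAC + CY, and 0 in the other comparisons.

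**Figure D4:**
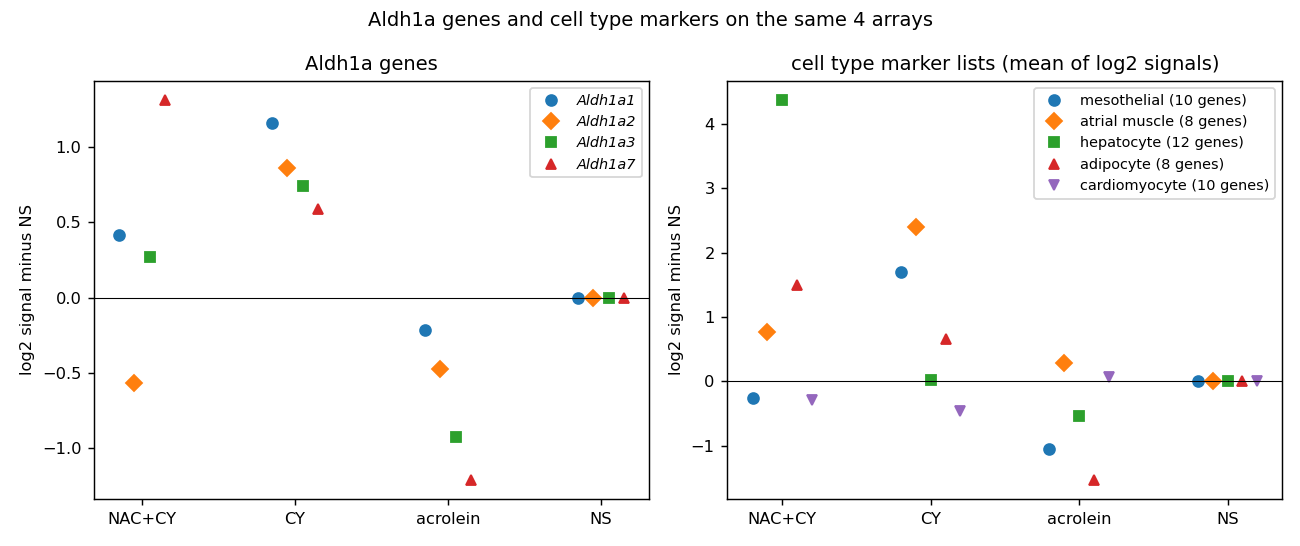
Log2 signal minus that of NS on each array, for 4 Aldh1a genes (left) and for the mean of the log2 signals of 5 lists of cell type markers (right, a wider axis). Points are single arrays; Aldh1a1, Aldh1a2 and Aldh1a3 and the mesothelial and atrial lists are highest on CY, and Aldh1a7 and the hepatocyte and adipocyte lists on NAC + CY.

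The genes nearest to Aldh1a1 over the 3 log2 ratios to NS were sought among 17859 genes with P flags on all 4 arrays, as a description over 4 arrays that share 1 NS array. By the root mean square difference they were 1500012F01Rik (0.046 log2 units; Zfas1 in RefSeq), Thbs3 (0.063), Pla2g7 (0.066), Ifit3b (0.073) and an unnamed transcript (0.088). Thbs3 codes for a thrombospondin, and stood at 0.37 on NAC + CY, 1.26 on CY and -0.19 on acrolein, relative to NS. Pla2g7, a plasma phospholipase, stood at 0.33 on NAC + CY, 1.099 on CY and -0.25 on acrolein. Of the other aldehyde dehydrogenases in that comparison, Aldh1b1 was nearest, at rank 990, and Aldh1a7 was not among them for want of a P flag on acrolein.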

How the data were processed

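The authors hybridised heart RNA to 4 Agilent SurePrint G3 mouse arrays of 1 slide. Their software was Agilent Feature Extraction, for which file headers give version 10.7.1.1 while the submitters' notes give 9.5.1.1. Intensity values, as deposited, are background-subtracted spot signals in arbitrary fluorescence units, not yet normalised, with an error estimate and flags per spot. The authors' deposited value table holds linear intensities of the same arrays with an equal median of 13.9 in every column, was used as an alternative only, and its scale and direction were found by setting it against the scanner signals.

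The signals (59305 spots without controls) were put on the log2 scale, quantile-normalised, the algorithm named in the authors' methods, here over all 4 arrays together, and averaged to 56605 probes, of which 30410 had a P flag (significantly positive and well above background, with neither saturation nor an outlier flag) on at least 1 array. No spot was saturated. Z-scores used a window of 200 probes, a size that the methods do not give. The methods' criteria for calls were applied to the brightest P-flagged probe of a gene. For a probe that did not stand well above background on 1 array, a bound was computed from that array's lowest normalised spot signal that was. The number of arrays limits the precision. Accessions of 15 of the 20 probes named the same gene in the RefSeq table of GRCm38.p6, and 5 were not in that table. Probe positions are on mm9.

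The genes, lists and alternatives were chosen with earlier results of these data known. Named were the 10 genes with all probes, up to 4 called genes with the largest absolute Z-score in each of 6 related lists, the 2 markers with the largest absolute log2 ratio of lists set beside a gene, and the 5 genes nearest to Aldh1a1. Aldh1a2 where it was not called and the retinoic acid receptor genes were named after their values were seen. One gene of the retinoic acid list is not reported here by name. Calls were tested on simulated data with known changes. Those changes were larger than any ratio of the 10 genes, so the simulation does not cover changes of their size. Simulated noise was constant and lower than the spread in the comparisons with CY. Median window SDs there were 0.58 for CY against NS, 0.54 for NAC + CY against NS and 0.41 for NAC + CY against CY. Alternatives covered scaling, background correction, the value table, the P flag filter, the window, the criteria and the choice of probe (11 in all). Python 3.11.15, numpy 2.4.6 and pandas 2.3.3 were used, with limma 3.58.1 in R 4.3.3 for normexp (offset 50).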

Additional observations from a re-analysis of the deposited data

How the results depend on the processing

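No paired analysis was possible because each group is 1 array and the labels carry no replicate numbers. Log2 ratios of single genes gave 439 values under 11 alternatives. The alternatives for the window and for the criteria act on calls only, so no ratio could move under them. The P flag filters left the ratios unchanged too. Counting all of these, 430 values moved by less than the error estimate or not at all. By contrast 9 moved by more, and 0 of the called values changed sign. The uncalled ratio of Aldh2 in NAC + CY against CY (0.02) lay below 0 under 3 of the 11, down to -0.065. Of the 9, 7 came with normexp background correction, which shrinks ratios of dim probes, and 2 with the median over the probes of Aldh9a1. Under normexp the acrolein calls fell to 0 of 10 genes, and NAC + CY against NS gave 2 higher (Aldh1a7 at 0.59 and Aldh1b1). Calls over all genes after acrolein were then 47 higher and 63 lower, against 213 and 256 in the main analysis. With scaling to the 75th percentile NAC + CY against NS gave 0 higher, though the log2 ratio of Aldh1a7 was 1.36 there against 1.32 in the main analysis, with any P-flagged probe 2 higher (Aldh1a7 and Aldh9a1), and with a P flag on both arrays acrolein gave 1 lower (Aldh1a3).

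A Z-score threshold of 3 left 0 calls in every comparison that had any. A ratio threshold of 2 left 1 gene lower after acrolein (Aldh1a7) and 0 lower in NAC + CY than in CY. The ratio criterion alone gave 4 higher after CY (Aldh1a1, Aldh1a3, Aldh1a7 and Aldh1b1), 2 higher after NAC + CY (Aldh1a7 and Aldh1b1) and 1 higher in NAC + CY than in CY (Aldh1a7). Over all genes the Z-score threshold of 3 gave 281 higher and 151 lower after CY, 89 and 100 after acrolein, 244 and 158 after NAC + CY, and 135 and 272 for NAC + CY against CY. The ratio alone gave 2312 and 2120, 786 and 567, 1908 and 1919, and 1171 and 1582, in the same order of comparisons. A ratio threshold of 2 gave 88 and 131 after acrolein, and 199 and 342 for NAC + CY against CY. Aldh1a1 was called higher after CY under 11 of 12 settings, the main one included, between 1.11 and 1.17. Its call was lost at the Z-score threshold of 3. Some settings could not remove it: Aldh1a1 has 1 probe, and the ratio criterion alone is looser. Signals near background limit what can be said of Aldh1a3 and Aldh1a7.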
